A study of Drosophila melanogaster with 8 samples.

Results

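Genes whose alternative poly(A) sites lie close together were examined in fly testes that overexpress 1 or both of a pair of 3' end processing proteins. A gene entered the set when the outermost listed poly(A) windows of its entry, a gene with its transcript, had midpoints under 200 bp apart. This held for 102 of 529 entries, each with 2 sites, at distances of 103 to 199 bp with a median of 146.5 bp. Another 351 entries had outermost sites 200 to under 1000 bp apart, and 76 had them 1000 bp or more apart.

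Reads at poly(A) sites were counted in 3' end libraries from testes of male Drosophila melanogaster, with 150 pairs of testes in each of 8 libraries. All flies carried nosGal4 on the X chromosome and the third chromosomes bam86,bamGal4 and bam1, so all are bam mutant, controls included. The second chromosome was +/+ in the 2 control libraries. It was UAS>cbc-V5/+ in 2 libraries, UAS>PCF11-RF-HA/+ in 2, and UAS>cbc-V5+PCF11-RF-HA/+ in 2; these groups are called cbc, PCF11 and both. The nos and bam promoters drive Gal4 in germ cells, so the tagged proteins were made there and the libraries also hold the somatic cells of the testis. Parents were crossed for 3 days at 25 °C and the progeny were kept at 29 °C. The controls carry no UAS transgene, so an effect of the protein and an effect of carrying a transgene cannot be told apart.

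Cleavage and polyadenylation end a transcript downstream of a poly(A) signal, and genes with more than 1 signal can end at a proximal or a distal site. Cbc, the fly Clp1, and Pcf11 belong to a cleavage factor that joins the RNA polymerase to the 3' end machinery. In bam mutant testes, germ cells stay in spermatogonia-like divisions and do not become spermatocytes. Sites that lie close together change the 3' UTR by a short stretch only, beside the long stretches lost or gained in genes with distant sites.

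Most windows lie in the gene's own 3' UTR. The proximal window was in an annotated 3' UTR in 99 genes and just downstream of the gene in 3. The distal window was in the 3' UTR in 86 and downstream in 16. Both windows were in the 3' UTR in 84.3% of these genes and in 83.6% of all 529 entries. The genes were spread over the chromosomes, with 19 on 2L, 19 on 2R, 23 on 3L, 23 on 3R, 15 on X, 2 on 4 and 1 on Y. In 30 genes (29.4%, against 29.7% of all entries) a window overlaps another annotated gene, in each case on the opposite strand, in 1 also on the same strand. Counting ignored strand, so in such windows the reads of both genes cannot be told apart.

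Listed reads came to between 238162 and 333675 per library, which is the total over the listed sites and not the depth of the library. The median gene of the set had between 276 and 358.5 reads in a library. With 304 reads, a proximal share of 25.0% has a 95% exact binomial interval of 20.2% to 30.3%, which covers counting error only. Reads carried no molecular identifiers, so copies of 1 molecule count as separate reads and the interval may be too narrow. Reads per site differed between duplicates by more than counting error. The chi-square per degree of freedom over all sites was 5.88 to 12.9 between the 2 libraries of a group. It was taken on site reads and not on the proximal share. The labels call the libraries duplicates and do not state separate cultures, so a p-value here reflects only how far these libraries differ. No gene of the marker lists for early germ cells (0 of 6 listed anywhere in the tables), spermatocytes (1 of 10), spermatids (0 of 7), cyst and hub cells (2 of 7) or sheath, muscle and fat (0 of 7) is among the 102 genes, so the tissue label could not be checked on them.

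In the controls these genes already used the proximal site to a moderate extent. The proximal share, the percentage of reads that fall on the upstream site of the pair, could be tested in 100 of the 102 genes. CG45766 had 0 reads in every library, and CG42590 had 3 proximal reads in all 8 libraries, beside 153 to 248 distal reads per library. CG5639 and Slik had 0 reads in control library 1 and so no share there. The median control share was 21.8% in control library 1, over the genes with reads there, and 20.7% in control library 2, over the 100 genes. As the mean of both control libraries' medians it was 21.3%, against 14.9% where sites were 200 to under 1000 bp apart, 26.5% at 1000 bp or more and 18.4% over all 516 tested entries. A control share under 5% was found in 12 of the 100 genes (12%), in 25.9% of genes with sites 200 to under 1000 bp apart and in 16.4% of those at 1000 bp or more. A control share over 50% was found in 9 of the 100 genes (9.0%) and in 80 of all 516 (15.5%).

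**Figure D1:**
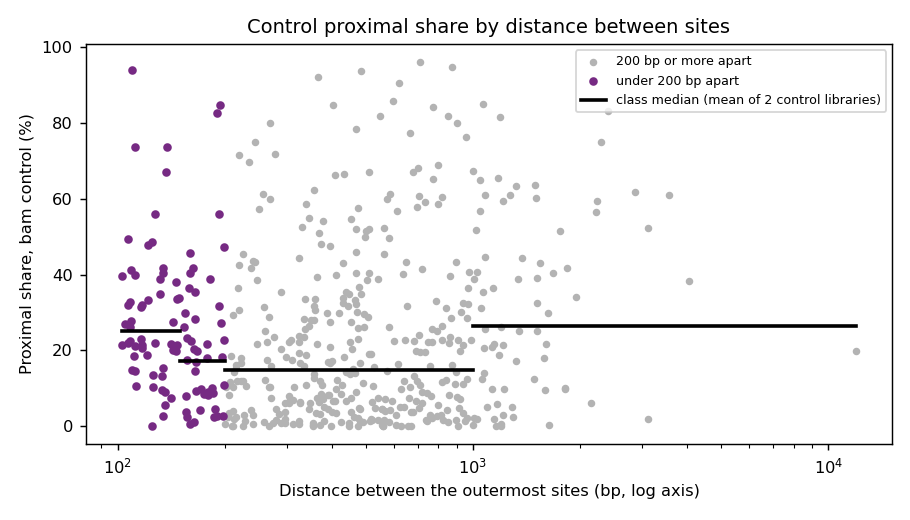
Each point is 1 tested entry, with the distance between its outermost sites in bp on a log axis and its proximal share in the bam control as the mean of 2 libraries; purple marks the genes under 200 bp apart and black bars are class medians. The medians were 25.1% under 150 bp, 17.0% at 150 to under 200 bp, 14.9% at 200 to under 1000 bp and 26.5% at 1000 bp or more.

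Within the set the control share was higher where the sites were closer. The 54 genes with sites under 150 bp apart had a median control share of 25.1%, and 2 of them (3.7%) were under 5%. The 46 tested genes at 150 to under 200 bp had a median of 17.0%, and 10 (21.7%) were under 5%. The rank correlation of distance with control share was -0.21 across the 100 genes, which share the same libraries, and 0.06 across all 516 entries. The sources used here give no read length, and whether reads that end at the distal site also fall into a window 103 to 199 bp upstream was not tested.

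With overexpression the median proximal share of the 100 genes was higher than in the controls in each library. It was 27.1% and 28.8% under cbc, 30.5% and 31.3% under PCF11, and 25.7% and 28.5% under both. The medians over all 516 entries were 19.9%, 21.7% and 21.0%, as means of 2 libraries, beside 18.4% in the controls. The 3 comparisons share the control libraries and are given side by side for that reason. In bulk testes, fewer cells of a type and less RNA per cell cannot be told apart in any of these values.

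**Figure D2:**
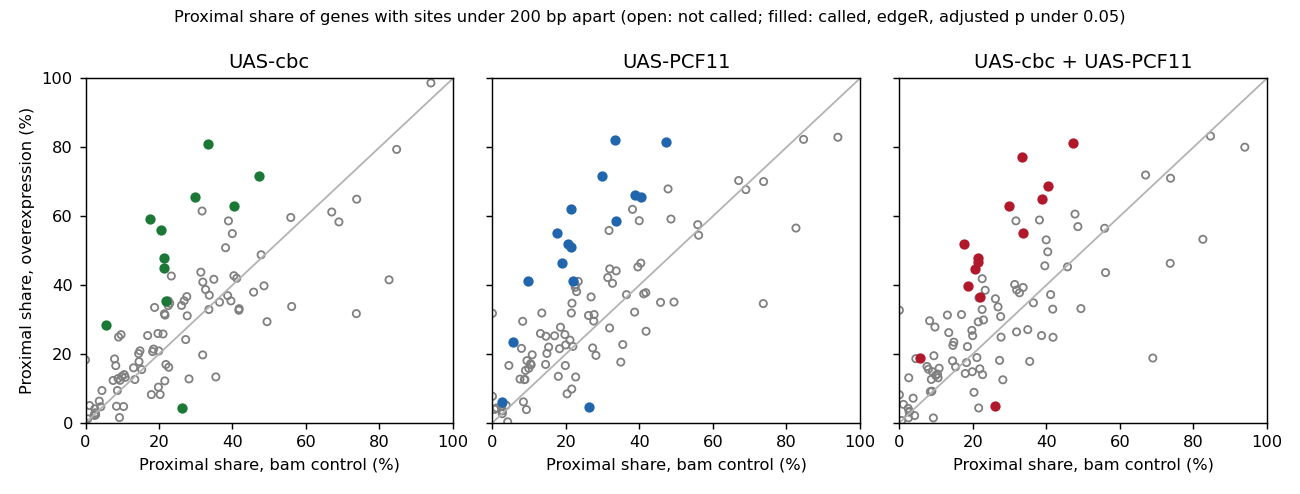
Each point is 1 of 100 genes, with its proximal share in the bam control (horizontal axis, %) and with overexpression (vertical axis, %), each the mean of 2 libraries. CG5639 and Slik had 0 reads in control library 1, so their control share is that of control library 2. Filled points passed the edgeR test. Called genes had control shares of 2.48% to 47.2%, and a single called gene, CG11030, lies below the line of equal shares in each panel.

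The question put to each overexpression was whether it moved reads between the sites of a gene. In edgeR (quasi-likelihood, Benjamini-Hochberg adjusted over all 516 entries, threshold 0.05), cbc changed 11 of the 100 genes, of which 10 moved to the proximal and 1 to the distal site, where 7.56% of all tested entries were called (5.62% toward the proximal site and 1.94% toward the distal). PCF11 changed 16, 15 toward proximal and 1 toward distal, where 10.5% of all were called (9.11% and 1.36%). Both together changed 14, 13 toward proximal and 1 toward distal, where 10.3% of all were called (7.56% and 2.71%). Among the other 416 entries the called shares were 6.73%, 9.13% and 9.38%. At an unadjusted edgeR p under 0.05 the counts were 26, 30 and 28 of the 100 genes. Over all 516 entries 24.6%, 25.8% and 25.0% passed at that level, which is close to the set. The difference between the set and the other entries was not tested. Without cbc library 1 the first count was 2, without PCF11 library 1 the second was 5, and without library 2 of both the third was 1.

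Over all 100 genes, called or not, values leaned toward the proximal site. The median log2 odds ratio of proximal usage was 0.32 under cbc, 0.63 under PCF11 and 0.48 under both across the 100 genes, and 0.14, 0.36 and 0.27 across all 516. It was above 0 in 64, 73 and 68 of the 100 genes, against 54.7%, 63.0% and 56.8% of all. Both cbc libraries lay above both controls in 39 genes and below them in 14, where 28.7% and 20.9% of all entries did so. For PCF11 these counts were 52 and 12 (36.8% and 16.3% of all), and for both they were 51 and 19 (32.9% and 21.7% of all).

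Within the set the shift was compared by distance without a test. The median log2 odds ratios of the genes under 150 bp apart were 0.39, 0.63 and 0.48 for cbc, PCF11 and both, and those of the genes at 150 to under 200 bp were 0.19, 0.65 and 0.44. The genes under 150 bp apart pointed toward the proximal site in 70.4%, 81.5% and 75.9%, and the others in 56.5%, 63.0% and 58.7%. Across the 100 genes the rank correlation of distance with the log2 odds ratio was -0.12, -0.05 and -0.01, and that of control share with the log2 odds ratio was -0.25, -0.38 and -0.37; the control share enters both quantities.

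**Figure D3:**
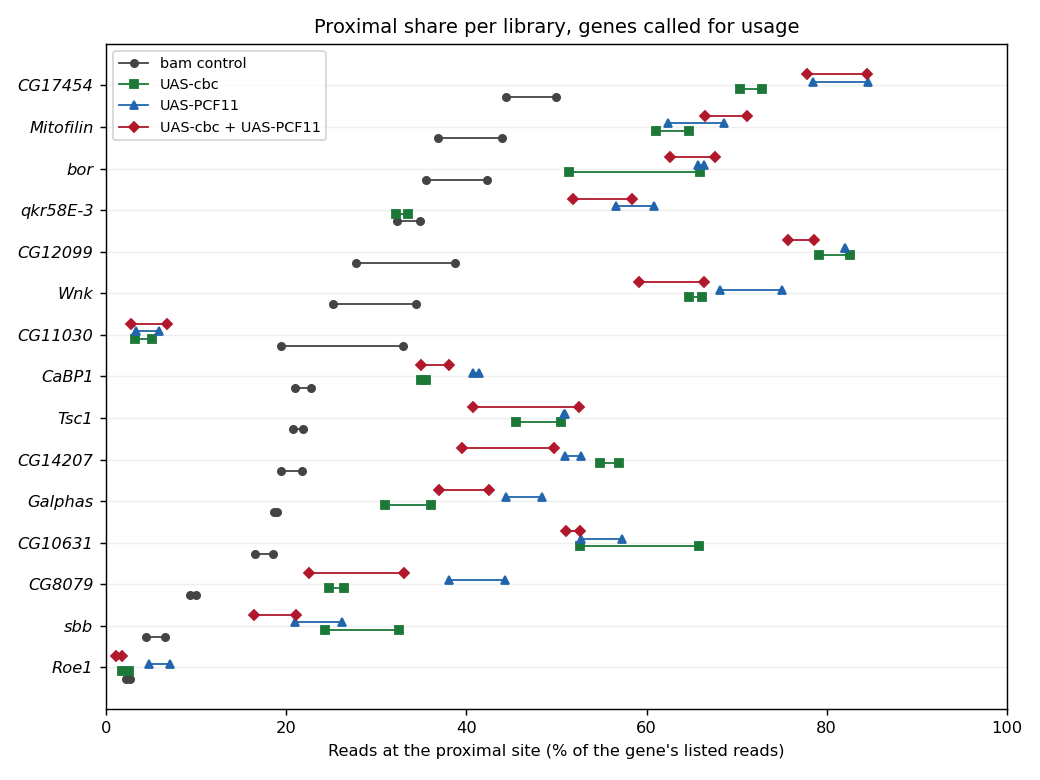
Proximal share (% of the gene's listed reads) in each of the 8 libraries for genes called for usage in at least 1 comparison, ordered by their control share; lines join the 2 libraries of a group. Most overexpression libraries lie to the right of both controls, CG11030 lies to the left, and qkr58E-3 under cbc lies at the control level. Roe1 lies to the left under both proteins and overlaps the controls under cbc.

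The largest called shift toward the proximal site was that of CG12099. Its windows lie 122 bp apart on the minus strand of chromosome 3L, with the proximal one at 1555482 to 1555512 and the distal one at 1555360 to 1555390, both in the 3' UTR (here and below coordinates are as the deposited tables give them, on BDGP6). The proximal share was 38.8% and 27.7% in control testes, 79.2% and 82.6% under cbc, 82.0% and 82.0% under PCF11, and 75.7% and 78.6% under both. All 6 overexpression libraries lay above both controls by more than the spread of any group. The log2 odds ratios were 3.10 ± 0.30 (approximate SE; edgeR adjusted p = 7.47e-04) under cbc, 3.21 ± 0.30 (edgeR adjusted p = 0.00116) under PCF11 and 2.77 ± 0.29 (edgeR adjusted p = 0.00244) under both.

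Reads at the 2 sites of CG12099 moved very differently. The proximal site had 812 and 486 CPM (counts scaled to the library's listed reads) in the controls and 3843 to 5934 CPM in the 6 overexpression libraries. The distal site had 1282 and 1264 CPM in the controls and 1171 to 1312 CPM with overexpression, within 0.04 log2 units of the control mean in each fitted comparison. Summed over both sites the gene rose 3.53-fold under cbc, 3.66-fold under PCF11 and 2.94-fold under both (edgeR adjusted p = 4.2e-07, 2.79e-07 and 1.67e-06). The rise lay at the proximal site, where edgeR gave log2 fold changes of 3.07, 3.13 and 2.74 (adjusted p = 1.36e-08, 1e-08 and 8.37e-08).

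Among genes of transcription and chromatin, sbb was the one called for usage. It encodes brakeless, a transcriptional corepressor, and its windows lie 136 bp apart on 2R, at 18279711 to 18279741 (proximal) and 18279575 to 18279605 (distal), both in the 3' UTR. The control libraries used the proximal site little, at 6.54% and 4.46%. The share was 24.3% and 32.5% under cbc, 26.2% and 20.9% under PCF11, and 16.5% and 21.1% under both, so that no overexpression library overlapped the controls. The log2 odds ratios were 2.78 ± 0.35, 2.42 ± 0.35 and 2.0 ± 0.35 (edgeR adjusted p = 0.00378, 0.00536 and 0.0127). Reads rose at the proximal site (log2 fold changes of 2.60, 2.26 and 1.68), the distal site did not pass the test (-0.17, -0.18 and -0.32), and neither did the summed reads, at 1.19, 1.12 and 0.945 times the control.

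Signalling genes held 3 of the called genes. Tsc1, which together with Tsc2 restrains TOR signalling, had proximal shares of 21.9% and 20.8% in control testes, 45.5% and 50.5% under cbc, 50.9% and 50.9% under PCF11, and 40.7% and 52.5% under both. The groups did not overlap the controls, and the log2 odds ratios were 1.77 ± 0.36, 1.93 ± 0.37 and 1.68 ± 0.37 (edgeR adjusted p = 0.025, 0.0128 and 0.0241). Its proximal reads rose with each overexpression (log2 fold changes of 1.15, 0.99 and 0.90), and its distal reads fell by 0.94 under PCF11 and by 0.76 under both on the log2 scale (edgeR adjusted p = 0.0113 and 0.0295). Summed reads of Tsc1 stood at 0.996, 0.854 and 0.874 times the control and did not pass; its sites lie 147 bp apart.

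Wnk, the With-no-lysine kinase that controls ion cotransport, shifted and also rose. Its proximal share was 25.2% and 34.4% in control testes, 64.7% and 66.2% under cbc, 75% and 68.1% under PCF11, and 59.2% and 66.4% under both. The log2 odds ratios were 2.17 ± 0.48, 2.59 ± 0.49 and 2.01 ± 0.48 (edgeR adjusted p = 0.0281, 0.0128 and 0.033). Summed reads were 424 and 291 CPM in control testes, 1230 and 1717 under cbc, 1899 and 1355 under PCF11 and 1192 and 1482 under both, which is 4.14, 4.58 and 3.76 times the control (edgeR adjusted p = 2.59e-05, 2.09e-05 and 5.14e-05).

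Galphas, the alpha subunit of the stimulatory G protein, had proximal shares of 19.0% and 18.6% in control testes, 30.9% and 36.0% under cbc, 48.4% and 44.4% under PCF11 and 36.9% and 42.5% under both. All 6 overexpression libraries lay above the controls, with the highest values in the PCF11 group. PCF11 and both passed (log2 odds ratios of 1.90 ± 0.40 and 1.5 ± 0.39, edgeR adjusted p = 0.0189 and 0.0451), and cbc did not (1.12 ± 0.40, edgeR adjusted p = 0.124). The PCF11 and cbc groups were not told apart by the direct test (log2 odds ratio 0.78 ± 0.39, edgeR adjusted p = 0.617).

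A pair of genes of RNA processing were called, of the 9 grouped under RNA processing, decay and translation. CG17454, named Spf30 in the annotation and an mRNA splicing factor, sits at the edge of the set, with windows 199 bp apart on the plus strand of 3L, at 23716659 to 23716689 and 23716858 to 23716888. Its distal window lies downstream of the gene, and a window overlaps an annotated transposable element on the opposite strand. The proximal share was 50.0% and 44.4% in control testes, 70.4% and 72.8% under cbc, 84.5% and 78.5% under PCF11, and 77.8% and 84.5% under both. All 6 overexpression libraries were higher than the controls, with log2 odds ratios of 1.5 ± 0.33, 2.31 ± 0.34 and 2.29 ± 0.33 (edgeR adjusted p = 0.0268, 0.00536 and 0.00843). Here distal reads fell, by 0.97, 1.93 and 1.69 on the log2 scale (edgeR adjusted p = 0.00799, 2.41e-05 and 7.44e-05), and proximal reads passed in the group with both proteins, not in the single ones (log2 fold change 0.60, edgeR adjusted p = 0.0344).

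The other one, qkr58E-3, is a KH-domain RNA-binding protein and was called under PCF11 and under both but not under cbc. Its proximal share was 32.3% and 34.8% in the controls and 33.5% and 32.2% under cbc, so these groups overlapped. It was 56.6% and 60.9% under PCF11 and 51.8% and 58.4% under both, above every control and cbc library. Against the control the log2 odds ratios were -0.04 ± 0.28 under cbc (edgeR adjusted p = 0.938), 1.49 ± 0.29 under PCF11 (0.0128 by the same test) and 1.28 ± 0.28 under both (0.0264 by the same test). Against cbc itself they were 1.54 ± 0.29 for PCF11 and 1.33 ± 0.29 for both, which edgeR did not call (adjusted p = 0.0934 and 0.264) and DESeq2 did (adjusted p = 0.00547 and 0.0467). Distal reads fell by 1.31 under PCF11 and by 1.11 under both on the log2 scale, and summed reads fell to 0.664 and 0.693 times the control (edgeR adjusted p = 0.013 and 0.0181).

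Of 7 genes grouped as mitochondrial, 1 was called under cbc, 3 under PCF11 and 2 under both. Mitofilin, the core of the complex that shapes mitochondrial cristae, had proximal shares of 36.8% and 43.9% in control testes, 61.0% and 64.7% under cbc, 62.4% and 68.6% under PCF11, and 71.1% and 66.5% under both. No library of these groups overlapped the controls, and the log2 odds ratios were 1.32 ± 0.34, 1.49 ± 0.34 and 1.71 ± 0.34 (edgeR adjusted p = 0.05 under cbc, just under the threshold before rounding, 0.0252 and 0.0177). In bor, a mitochondrial AAA ATPase of the ATAD3 type, the share was 42.3% and 35.5% in control testes, 65.7% and 66.4% under PCF11 and 62.6% and 67.6% under both, and these were called (edgeR adjusted p = 0.0229 and 0.0283). Under cbc the 2 bor libraries stood far apart, at 51.4% and 65.9%, and the shift did not pass (edgeR adjusted p = 0.0851).

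Roe1, the nucleotide exchange factor of mitochondrial Hsp70, was the least proximal of the called genes. Its share was 2.25% and 2.71% in control testes, 1.72% and 2.60% under cbc, 4.73% and 7.10% under PCF11, and 1.77% and 1.12% under both. PCF11 alone was above the controls (log2 odds ratio 1.29 ± 0.33, edgeR adjusted p = 0.0397), on 71 and 124 proximal reads beside 63 and 88 in the controls. The libraries under both proteins lay below the controls, and both against PCF11 gave a log2 odds ratio of -2.09 ± 0.34, which edgeR did not call (adjusted p = 0.107) and DESeq2 did (adjusted p = 1.09e-04). PCF11 against cbc gave 1.52 ± 0.34 (edgeR adjusted p = 0.217, DESeq2 adjusted p = 0.0141). The proximal reads of Roe1 did not pass under PCF11 (log2 fold change 0.63, edgeR adjusted p = 0.334), and its distal reads fell by 0.71 (edgeR adjusted p = 0.00108).

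Both protein quality genes below also shifted. CG14207, a small heat shock protein, had proximal shares of 21.8% and 19.5% in control testes, 56.9% and 54.8% under cbc, 51.0% and 52.7% under PCF11, and 39.5% and 49.7% under both. These did not overlap the controls, and the log2 odds ratios were 2.29 ± 0.31, 2.06 ± 0.31 and 1.64 ± 0.31 (edgeR adjusted p = 0.00378, 0.00588 and 0.0161). Summed reads of CG14207 rose 2.32-, 2.51- and 3.09-fold, and under both the distal site rose as well (log2 fold change 1.06, edgeR adjusted p = 0.00288).

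CaBP1, an endoplasmic reticulum protein of the protein disulfide isomerase family, showed a small shift with close duplicates. Its share was 22.7% and 21.0% in control testes, 35.0% and 35.5% under cbc, 41.4% and 40.7% under PCF11, and 35.0% and 38.1% under both. The groups were apart from the controls at log2 odds ratios of 0.96 ± 0.21, 1.32 ± 0.21 and 1.04 ± 0.21 (edgeR adjusted p = 0.025, 0.00605 and 0.0177). Its sites, 107 bp apart, were the closest of the called genes, and a library held 269 to 889 proximal and 915 to 1763 distal reads of it.

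Of the called genes without a described role, CG10631 had proximal shares of 16.5% and 18.5% in control testes, 52.6% and 65.9% under cbc, 52.7% and 57.3% under PCF11, and 52.6% and 51.1% under both. Its proximal reads rose (log2 fold changes of 1.48, 1.32 and 1.25) and its distal reads fell by 1.16, 1.19 and 1.08 on the log2 scale, and the summed reads, at 0.872, 0.821 and 0.819 times the control, did not pass. The log2 odds ratios were 2.77 ± 0.59, 2.52 ± 0.59 and 2.34 ± 0.58 (edgeR adjusted p = 0.025, 0.0268 and 0.0375). CG8079, which overlaps Fs on the opposite strand, was called under PCF11 alone, with shares of 9.36% and 10% in the controls and 44.3% and 38% under PCF11 (log2 odds ratio 2.69 ± 0.71, edgeR adjusted p = 0.0423). Its other groups were also above the controls, at 26.4% and 24.8% under cbc and 22.6% and 33.0% under both, but did not pass (edgeR adjusted p = 0.18 and 0.149), on 14 to 46 proximal and 54 to 155 distal reads per library.

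CG11030 was the only gene of the set that edgeR called toward the distal site. Its windows lie 154 bp apart on the plus strand of 2L, at 5759868 to 5759898 and 5760022 to 5760052, both in the 3' UTR. The proximal share was 32.9% and 19.4% in control testes, 3.23% and 5.09% under cbc, 3.33% and 5.87% under PCF11, and 2.82% and 6.71% under both. The log2 odds ratios were -3.06 ± 0.61, -2.92 ± 0.62 and -2.85 ± 0.62 (edgeR adjusted p = 0.0238, 0.019 and 0.0241). Reads at the distal site were 106 and 79 in the controls and 379 to 688 with overexpression (log2 fold changes of 2.82, 2.55 and 2.32), while proximal reads were 52 and 19 in the controls and 11 to 40 with overexpression and did not pass. Summed reads rose 5.38-, 4.50- and 3.82-fold.

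**Figure D4:**
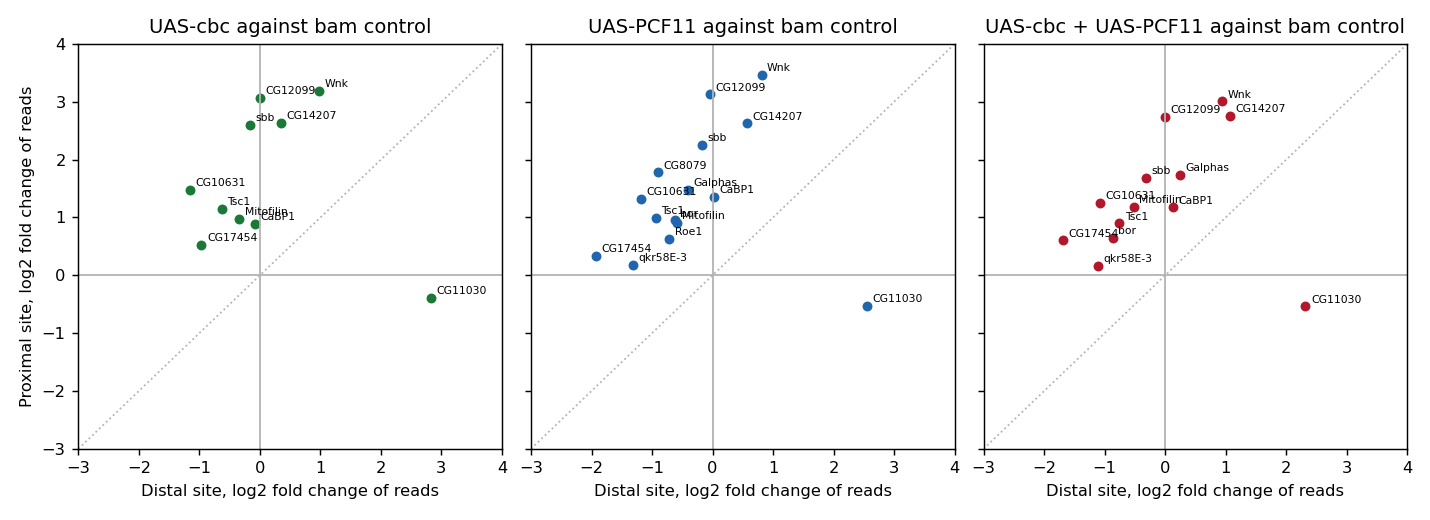
Log2 fold change of reads at the distal site (horizontal axis) and at the proximal site (vertical axis) against the bam control for genes called for usage, 1 panel per overexpression; the dotted line marks equal change at both sites. All points but CG11030 lie above the dotted line, most of them above 0 at the proximal site and around or below 0 at the distal site.

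Most called shifts toward the proximal site came with more proximal reads. Of the 10 such genes under cbc, the proximal site rose without a call at the distal site in 7, with a rise there in 1 (Wnk) and with a fall there in 1 (CG10631), and the distal site alone fell in 1 (CG17454). Of the 15 under PCF11 these were 8, 0, 3 and 3, with neither site called in 1 (CG8079). Of the 13 under both they were 6, 2, 3 and 2. In CG11030 the distal site rose and the proximal site was not called in each comparison. These patterns were counted for the set alone and not over all called entries. The genes were called on the ratio of the same reads, so the site tests are not separate evidence.

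Calls were also counted site by site over the set. Of 199 tested sites, 38 were called under cbc, 39 under PCF11 and 52 under both by edgeR, where 19.6%, 19.7% and 26.8% of all 1015 sites were called. Proximal sites rose in 18 and fell in 2 of 99 under cbc, rose in 20 and fell in 0 under PCF11, and rose in 22 and fell in 2 under both. Over all listed genes 57 proximal sites rose and 26 fell of 473 under cbc, 75 and 13 under PCF11, and 77 and 31 under both. Distal sites of the set rose in 11 and fell in 7 of 100 under cbc, in 8 and 11 under PCF11, and in 12 and 16 under both. Over all listed genes 61 distal sites rose and 53 fell of 522 under cbc, 48 and 62 under PCF11, and 79 and 78 under both. Beside the 0 falls of proximal sites under PCF11, 1 had an unadjusted edgeR p under 0.05 and DESeq2 called 0.

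The calls for usage rest on 2 libraries a group and many depend on each of them. Under cbc, CG12099 and sbb passed whichever of the 4 libraries compared was left out, CG14207 was lost without cbc library 1 (edgeR adjusted p = 0.0525), and CG10631, Tsc1, CG17454 and Mitofilin were lost without any 1 of the 4 (highest edgeR adjusted p = 0.152, 0.152, 0.171 and 0.216). Wnk and CG11030 passed without control library 2 alone, and CaBP1 without control library 1 alone (highest edgeR adjusted p = 0.163, 0.12 and 0.152). Under PCF11, CG12099, sbb, CG17454 and CG14207 were among those that passed in each case; Wnk, Tsc1, Galphas and qkr58E-3 were lost without either PCF11 library (highest edgeR adjusted p = 0.103, 0.0784, 0.121 and 0.0804). CG8079 and CG10631 were lost without any 1 library (0.243 and 0.166), bor passed without control library 1 alone (0.116) and CG11030 without control library 2 alone (0.124).

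Under both, CG12099 passed in each case. CG17454, sbb and CG14207 were lost without library 2 of that group (edgeR adjusted p = 0.0659, 0.0838 and 0.129), and Mitofilin without either library of that group (highest edgeR adjusted p = 0.0861). CG10631, Galphas and qkr58E-3 were lost without any 1 of the 4 libraries (highest edgeR adjusted p = 0.187, 0.238 and 0.201). Wnk, Tsc1, bor and CG11030 passed in 1 of 4 cases each (highest edgeR adjusted p = 0.204, 0.187, 0.201 and 0.113). The sign of the shift was the same in each of these fits, and the sensitivity of the counts to each library is given at the end. CaBP1, Mitofilin and Roe1 were not called under PCF11 without PCF11 library 1. CaBP1 was not called under both without library 2 of that group.

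The overexpression groups were not told apart from each other by edgeR. PCF11 against cbc, both against cbc and both against PCF11 gave 0 called genes in the set (0.0% of all 516), with 7, 5 and 2 at an unadjusted p under 0.05 (8.53%, 6.2% and 3.49% of all). DESeq2 called 2 (qkr58E-3 and Roe1), 1 (qkr58E-3) and 1 (Roe1). The median log2 odds ratio of the 100 genes was 0.27 for PCF11 against cbc, 0.10 for both against cbc and -0.16 for both against PCF11. The log2 odds ratio was above 0 in 70, 57 and 37 of the 100 genes. These medians and counts were taken for the set alone and not over all 516 entries. Both libraries of the first group lay above both of the second in 34, 32 and 11 genes (32.2%, 25.4% and 9.69% of all) and below in 7, 13 and 24 (10.1%, 14.1% and 25.2% of all).

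The genes that used the proximal site most in the controls passed no edgeR test of usage. The 9 genes with a control share over 50% were r-cup, CG5262, Mkp3, 4E-T, eIF2alpha, Taf1, CG17598, Chc and Slik. They were named here after their values were seen. Of them edgeR called 0 in each comparison, with 3, 2 and 1 at an unadjusted p under 0.05, and DESeq2 called 2, 0 and 0. Over all 516 entries edgeR called 7.56%, 10.5% and 10.3%, and with 9 genes a count of 0 cannot be told apart from these shares. The control share that picked these genes also enters each log2 odds ratio, which favours values below the controls. Few reads limit the test in Slik and r-cup. Slik had 0 reads in control library 1 and 20 proximal and 9 distal reads in control library 2. For r-cup these were 7 proximal and 0 distal reads, then 44 and 6. Taf1, the scaffold subunit of the general transcription factor TFIID, had shares of 72.8% and 92.4% in control testes, 55.9% and 27.2% under cbc, 60.8% and 52.3% under PCF11, and 52.1% and 54.5% under both. All 6 libraries were below both controls, without passing the test (log2 odds ratios of -2.98 ± 0.91, -2.08 ± 0.89 and -2.28 ± 0.89; edgeR adjusted p = 0.0839, 0.181 and 0.151). Reads at its distal site rose (log2 fold changes of 2.45, 2.11 and 2.06; edgeR adjusted p = 4.7e-04, 0.00181 and 0.00182), in a window that overlaps CG1307 on the opposite strand.

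Other large values came with few reads. CG42588, with 5 to 18 distal reads per library, had 0 proximal reads in both controls and 1 to 18 in the overexpression libraries, and its log2 odds ratios were 3.77 ± 2.79, 5.01 ± 2.76 and 5.13 ± 2.78 (edgeR adjusted p = 0.455, 0.322 and 0.287). In pim, the fly securin that holds sister chromatids together until anaphase, the proximal share was 12.1% and 6.37% in control testes, 0.347% and 2.69% under cbc, 2.18% and 5.48% under PCF11 and 0.746% and 2.06% under both. These were below both controls, on 1 to 16 proximal reads, and did not pass (edgeR adjusted p = 0.106, 0.367 and 0.09). The genes were named after their values were seen.

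The limit of 200 bp falls among genes with unlike values. Just inside it at 199 bp, beside CG17454, Syx6, a SNARE of the Golgi, had control shares of 22.6% ± 16.3 (SD, n = 2) and log2 odds ratios of -0.63, -0.81 and -0.80. Mei-S332, the fly shugoshin that guards centromeric cohesion, had 10.8% ± 0.445 and log2 odds ratios of 0.29, 1.0 and 0.61. Just outside, gwl (200 bp) had 0.625% ± 0.884, Atxn7 (202 bp) 10.2% ± 14.4 and Src42A (204 bp) 2.46% ± 2.90 in the controls. The closest sites were those of CG1371 and CG1840, at 103 bp, and of emei, at 105 bp. For the usage of these sites edgeR called 0 in each comparison, with 0 at an unadjusted p under 0.05 and 0 by DESeq2. With 3 genes this cannot be told apart from the 7.56%, 10.5% and 10.3% of all entries that edgeR called.

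Reads summed over both sites of a gene were tested apart from usage. Under cbc 24 of 101 tested genes were called by edgeR (24.6% of all 516), 18 higher and 6 lower (14.1% and 10.5% of all). Under PCF11 18 were called (21.9% of all), 14 higher and 4 lower (12.6% and 9.3% of all), and under both 27 (32.6% of all), 18 higher and 9 lower (18.8% and 13.8% of all). At an unadjusted p under 0.05 these were 34, 33 and 38 genes, where 35.9%, 37.2% and 43.4% of all passed. The calls numbered 12 without cbc library 2, 11 without PCF11 library 1 and 14 without library 2 of both. The split depended on the scaling for 2 of the 3: with RLE factors in place of TMM it was 14 higher and 7 lower for PCF11 and 17 and 14 for both, and with DESeq2 it was 14 and 8, and 18 and 14. The 5 largest called rises and falls of each comparison, named below, kept their direction and passed under RLE and DESeq2 too. Changes are relative to the listed genes, whose median log2 fold change lay between 0.00 and 0.04 in size under TMM.

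Calls for usage and for summed reads were set side by side, without a test of the difference. Of the 100 genes, 5 were called for both measures under cbc, 6 for usage alone and 19 for summed reads alone. These counts were 6, 10 and 12 under PCF11, and 7, 7 and 20 under both. Over all 516 entries they were 21, 18 and 108 under cbc, 20, 34 and 93 under PCF11, and 32, 21 and 138 under both.

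**Figure D5:**
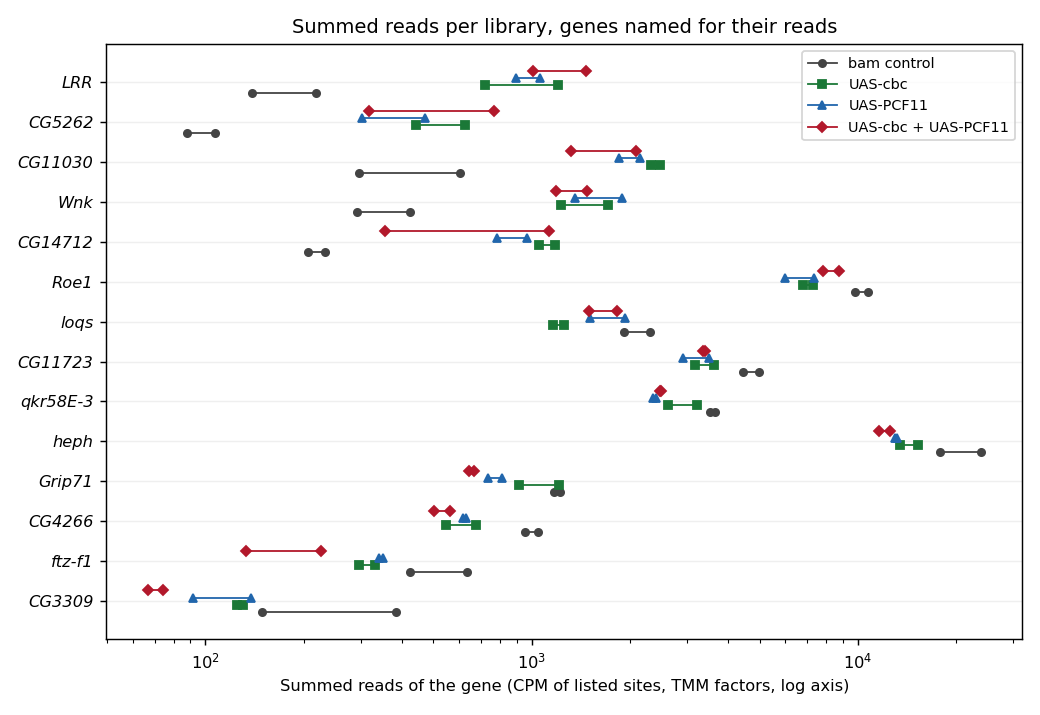
Summed reads per library, in CPM of listed sites with TMM factors on a log axis, for 14 genes named for their change, ordered by the change under both proteins; lines join the 2 libraries of a group. The top 5 genes lie above both controls in each overexpression library, and the lower 9 lie mostly at or below the controls.

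The largest rises were in genes with few control reads. LRR had 218 and 139 CPM in control testes, 1202 and 719 under cbc, 1061 and 898 under PCF11, and 1013 and 1464 under both. All libraries lay above the controls, by 5.43, 5.53 and 6.99 times (log2 fold changes of 2.44 ± 0.32, 2.47 ± 0.32 and 2.80 ± 0.32; edgeR adjusted p = 2.71e-05, 3.63e-05 and 7.95e-06). CG5262 had 107 and 87.8 CPM in the controls and rose 5.47-, 3.98- and 5.57-fold, and its proximal share pointed downward from 75% and 72.4% to between 28.8% and 51.1% without passing. CG14712 had 206 and 233 CPM in the controls and rose 5.06-, 3.97- and 3.37-fold, with 355 and 1132 CPM in the 2 libraries under both. Without library 2 of that group the rise of CG14712 did not pass (log2 fold change 0.69, edgeR adjusted p = 0.174), and without PCF11 library 1 neither CG5262 nor CG14712 passed under PCF11 (edgeR adjusted p = 0.0925 and 0.0611).

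eIF2alpha, the regulated subunit of a translation initiation factor, had the most reads of the set on average and rose at both sites. Its summed reads were 11403 and 10533 CPM in control testes, 20238 and 20192 under cbc, 17875 and 17954 under PCF11 and 15831 and 20103 under both. That is 1.84, 1.63 and 1.64 times the control (edgeR adjusted p = 2.59e-05, 2.85e-04 and 1.58e-04), with the 6 libraries above both controls. Its distal window overlaps rngo on the opposite strand. In genes of the centrosome and of motors, spd-2, a centrosome scaffold, rose 2.30-, 1.77- and 1.98-fold and Khc, the kinesin heavy chain, 1.80-, 1.60- and 1.72-fold, both named after their values were seen (edgeR adjusted p = 5.36e-04, 0.0111 and 0.00265, and 0.00178, 0.011 and 0.00312).

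A fall in each of the 3 comparisons was called for heph, the fly homologue of the polypyrimidine tract binding protein, which spermatid differentiation needs. Summed reads were 17875 and 23845 CPM in control testes, 15353 and 13448 under cbc, 13199 and 13013 under PCF11, and 12552 and 11590 under both. All 6 libraries were below both controls, at 0.690, 0.628 and 0.579 times (log2 fold changes of -0.53 ± 0.13, -0.67 ± 0.13 and -0.79 ± 0.13; edgeR adjusted p = 0.00508, 9.57e-04 and 1.58e-04). Distal reads fell by 0.67, 0.81 and 0.94 on the log2 scale, proximal reads did not pass, and the proximal share went from 19.2% and 20.3% to between 25.0% and 27.0% without passing (edgeR adjusted p = 0.107, 0.115 and 0.068). The cbc fall did not pass without control library 2 or without cbc library 2 (highest edgeR adjusted p = 0.103).

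Roe1 fell from 10720 and 9836 CPM to 7293 and 6773 under cbc and to 5989 and 7328 under PCF11 (0.684 and 0.648 times, edgeR adjusted p = 0.00539 and 0.00209), and under both it stood at 8790 and 7848 CPM without passing. The loqs gene, whose protein partners Dicer, fell under cbc to 0.573 times the control (edgeR adjusted p = 0.00632), and its summed reads include a second entry with sites 226 bp apart. CG11723 fell to 0.723, 0.681 and 0.720 times the control (edgeR adjusted p = 0.0344, 0.0154 and 0.0254). CG4266, named Isha in the annotation, fell under cbc and under both, to 0.613 and 0.532 times (edgeR adjusted p = 0.0462 and 0.0106), and stood at 0.623 times under PCF11 (edgeR adjusted p = 0.0589). The falls of loqs and Roe1 under cbc were lost without cbc library 2 (edgeR adjusted p = 0.0681 and 0.0892), that of Roe1 under PCF11 without PCF11 library 1 (0.0611), and that of CG4266 under cbc without any 1 library (highest 0.271).

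Some falls were called under both proteins while the single groups, which pointed the same way, did not pass; the difference between groups was not tested. Grip71, of the gamma-tubulin ring complex, had 1226 and 1175 CPM in the controls and 645 and 666 under both (0.546 times, edgeR adjusted p = 0.00888), beside 0.885 times under cbc and 0.645 times under PCF11 (edgeR adjusted p = 0.589 and 0.0576), and its windows overlap Irk3 on the opposite strand. The nuclear receptor ftz-f1 had 424 and 633 CPM in the controls and 226 and 133 under both (0.340 times, edgeR adjusted p = 0.00495), a call lost without library 2 of that group (0.062 by the same test), and stood at 0.591 and 0.653 times under cbc and PCF11 (edgeR adjusted p = 0.144 and 0.239). CG3309 had 149 and 384 CPM in the controls and 74.3 and 66.6 under both (0.264 times, edgeR adjusted p = 0.0259), and passed in 1 of the 4 cases with a library left out (highest edgeR adjusted p = 0.276). It stood at 0.477 and 0.429 times under cbc and PCF11 (edgeR adjusted p = 0.21 and 0.155). Under cbc Chc, the clathrin heavy chain, fell to 0.785 times (edgeR adjusted p = 0.0375), beside 0.932 and 1.06 times under PCF11 and both (edgeR adjusted p = 0.555 and 0.641), with shares of 80.5% and 88.8% in the controls and 77.6% to 86.0% in the other libraries.

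By role, 47 of the 102 genes were grouped from their known functions, and these groups were put together with results of the data known. Genes of vesicle traffic and motors had 0 of 7 called for usage in each comparison by edgeR, with 1, 1 and 0 at an unadjusted p under 0.05 and 0 by DESeq2. Signalling had 2, 3 and 3 of 9 called, RNA processing 1, 2 and 2 of 9, mitochondria 1, 3 and 2 of 7, the cell cycle group 1, 1 and 1 of 9, and transcription and chromatin 1, 1 and 1 of 6, beside 7.56%, 10.5% and 10.3% of all entries, with all of these calls toward the proximal site. The median log2 odds ratio of the signalling group was 0.79, 1.61 and 1.24, and that of the vesicle group was -0.11, 0.35 and 0.29, beside 0.32, 0.63 and 0.48 in all 100 genes. Of a list of 20 cleavage and polyadenylation genes, 1 is in the tables and 0 in the set. Lists of RNA-binding, chromatin, signalling, vesicle and mitochondrial genes have 1 gene each here, heph, sbb, Tsc1, Chc and Mitofilin, described above.

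The authors' deposited table tests the same genes in another way. In the authors' deposited table, 45 of the 88 genes of the set listed for cbc had an adjusted p under 0.05 (51.1%, against 47.7% of all 421 listed), 53 of 89 for PCF11 (59.6%, against 52.0% of 427) and 57 of 90 for both (63.3%, against 55.0% of 424). The authors' score was below 0, toward the proximal site, in 32, 43 and 44 of these in the authors' deposited table. In the authors' deposited table it was above 0, toward the distal site, in 13, 10 and 13 of these. The directions over all listed genes were not counted here.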

How the data were processed

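Reads of 3' end libraries (QuantSeq forward kit) went through Bowtie and SAMtools on dm6/BDGP6, per the submitters' processing notes, which give no versions. The authors deposited unnormalized counts for each poly(A) site from PolyA-miner, ignoring strand and without molecular identifiers, per the run logs. The windows are 30 bp wide, apart from 3 of the 204 used here (at most 52 bp), with the listed site at their 3' end (1082 of 1082). Sites taking a low proportion of a gene's reads were removed by the authors, per the run logs, so listed sites are a selected set; the sources used here do not give trimming settings. The authors' result tables hold a usage score per gene (distal over proximal) with adjusted p-values, per the file headers.

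The 3 deposited count tables were joined into 8 libraries; their control counts were the same for shared sites. Tables held 0 columns of other samples. The members and gene lists were chosen with earlier results of these data known. Entries averaging at least 10 reads a library, with at least 5 reads in all at either side, were tested for usage by the quasi-likelihood method of edgeR 4.0.16 under R 4.3.3 (terms for library, site and their change with genotype; 8 libraries fitted together), adjusted by Benjamini-Hochberg over all 516 entries. SEs are approximate (coefficient divided by the square root of F). Reads per site (mean of 5 or more) and summed reads per gene (mean of 10 or more) were tested likewise with TMM factors. CPM are computed here from the deposited counts over the reads of the tested sites or genes, with TMM factors. Each test was checked on simulated data. Alternatives included DESeq2 1.42.0, other filters and distances, RLE factors and each library left out. Of 17807 genes in the authors' list, 17017 matched the BDGP6 annotation by symbol and 16955 (99.6%) had the same coordinates. Named genes, apart from 1 that the rule picks and whose values are not reported here although it is in the totals, are the largest called shifts (up to 12 per direction and comparison) with 2 libraries beyond both controls, the 5 largest called rises and falls in summed reads, the genes nearest the limit, the closest, the most read and called list members; others are marked.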

Additional observations from a re-analysis of the deposited data

How the results depend on the processing

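Counts of called genes for usage (11, 16 and 14 for cbc, PCF11 and both) kept to within 1.5 times with DESeq2, with no minimum, with a mean of 50 or more reads, with the most distal site against all others, with genes under 250 bp apart and without genes that share a window with another gene. With only the 4 libraries compared in the fit they were 4, 9 and 3, and for genes under 150 bp apart 6, 8 and 8, a smaller set by construction. With 1 library left out they ranged from 2 to 9, 5 to 15 and 1 to 11; the lowest were without cbc library 1, PCF11 library 1 and library 2 of both. DESeq2 called 2, 1 and 1 in the direct comparisons of PCF11 with cbc, both with cbc and both with PCF11. Summed-read calls (24, 18 and 27) were 15 for cbc and 15 for both among genes under 150 bp apart and 30 for PCF11 under 250 bp, and with 1 library left out 12 to 26, 11 to 23 and 14 to 25, lowest without cbc library 2, PCF11 library 1 and library 2 of both. Site calls with 1 library left out were 21 to 42 for cbc and 22 to 50 for both, lowest without cbc library 2 and library 2 of both. No direction reversed among the named genes. The causes of these changes were not tested, apart from the smaller or larger sets. The count of reads at a gene limits what a test on 2 libraries a group can call.

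Replicate numbers did not pair the libraries: the correlation of deviations of same-numbered libraries was -0.05 to 0.07 for usage and -0.12 to 0.15 for summed reads. With the replicate number as a block, 5, 13 and 11 genes were called for usage with cbc, PCF11 and both.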
